A study of Mus musculus with 8 samples.

Results

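The comparison described here sets night against day in the livers of vehicle-treated mice on a high-fat diet. Its members are 4 of the 8 libraries of the series, chosen by their labels: 2 control livers collected at ZT18 and 2 control livers collected at ZT6. Zeitgeber time (ZT) counts the hours from lights on, so ZT6 lies in the light phase, when mice mostly rest, and ZT18 in the dark phase, when they mostly feed. All animals were male C57BL/6J mice bought at 4 weeks of age and given a diet with 45 cal% fat. They were gavaged every other day between ZT8 and ZT10, and the livers were collected at 30 weeks of age. The control mice received the vehicle, PBS, in a cohort of 11. The other 4 libraries came from a cohort of 12 that received sudachitin, a polymethoxyflavone from citrus peel, at 100 mg per kg body weight. They enter here through the filter on low counts, the shared estimate of spread and where their values are set beside those of the controls.

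Every group shared the diet, the gavage and the age, so these values describe a day-night difference of high-fat-diet liver and give no comparison with other feeding. With 2 time points, neither the peak time nor the amplitude of a rhythm can be read. Each library title names 1 mouse, and nothing more in the labels says how the animals were housed or pooled, so p-values measure only the spread between these libraries. The mouse codes of both ZT6 controls begin alike and no such beginning occurs at both times. What the codes mark is not given in the sources used here, and it cannot be told apart from time of day. Below, the ZT6 controls are called day mouse 1 and 2 and the ZT18 controls night mouse 1 and 2, by their replicate numbers.

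The liver clock is a transcriptional loop. CLOCK and BMAL1 (the product of Arntl) bind E-boxes and drive the Per and Cry genes, whose products repress them, and the nuclear receptor genes Nr1d1 and Nr1d2, whose products repress Arntl, Cry1 and Nfil3. Outputs such as DBP carry the rhythm to metabolic genes, while feeding adds its own rhythm to lipid synthesis, protein folding in the endoplasmic reticulum (ER) and bile acid handling.

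Promoter sequences are shown for the called genes of the clock, clock output and ER chaperone lists whose promoter holds a searched motif, because these lists hold 17 of the called genes. Promoters were RefSeq windows of 300 bases, from 250 before to 50 after a transcript start (GRCm38.p6), searched on both strands. The motifs were the E-box (CACGTG), the D-box (TTATGTAA or TTATGCAA), the ROR element, and the ER stress response element, which is CCAAT and CCACG with 9 bases between. Of those 17, 15 had a promoter in the table and 5 held a match, all to the E-box or the ER stress response element. Sequences are printed in the direction of the gene, and capitals mark the motif, which reads as its reverse complement where it lies on the other strand.

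An E-box was found in the night-high genes Cry1 (chr10:85185079-85185144, minus strand, E-box starting 60 bases before the start) and Tspan4 (chr7:141476299-141476364, plus strand, 51 bases before) and in the day-high gene Calr (chr8:84847120-84847181, minus strand, 224 bases before).
Cry1 E-box: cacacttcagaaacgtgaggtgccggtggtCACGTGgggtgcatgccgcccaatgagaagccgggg
Tspan4 E-box: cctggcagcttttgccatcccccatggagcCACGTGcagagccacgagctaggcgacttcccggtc
Calr E-box: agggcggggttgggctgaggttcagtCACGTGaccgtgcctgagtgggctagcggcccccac

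The day-high chaperone genes Hsp90b1 (minus strand, chr10:86705608-86705686 and chr10:86705503-86705581), Calr (chr8:84847045-84847123, minus strand) and Pdia6 (chr12:17266461-17266539, plus strand) held the ER stress response element, with 2 copies in Hsp90b1.
Hsp90b1 first element: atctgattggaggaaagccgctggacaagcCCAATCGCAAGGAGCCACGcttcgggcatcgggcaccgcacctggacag
Hsp90b1 second element: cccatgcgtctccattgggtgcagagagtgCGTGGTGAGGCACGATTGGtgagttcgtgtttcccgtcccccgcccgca
Calr element: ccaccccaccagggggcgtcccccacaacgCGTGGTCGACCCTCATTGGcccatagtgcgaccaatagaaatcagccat
Pdia6 element: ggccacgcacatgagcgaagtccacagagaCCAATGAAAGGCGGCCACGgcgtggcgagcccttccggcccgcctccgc

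An E-box was present in 7.15% of all 32851 promoters of the table and in 9.69% of the promoters of tested genes. The ER stress response element was present in 0.119% of all promoters and in 9 of the 21 promoters found for the ER chaperone list. Besides Calr, Hsp90b1 and Pdia6, those 9 belonged to Canx, Creld2, Derl3, Dnajc3, Hspa5 and Syvn1. No called gene of the 3 lists held a D-box or a ROR element in this window, against 1.66% and 0.435% of all promoters. These counts describe the letters of the windows and not binding.

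The 8 libraries held between 13914116 and 17759630.5 estimated counts in exons. Levels below are CPM, counts scaled by library size with TMM factors. Replicates differed by more than sampling noise in every group, and the night mice differed from each other most: 1202 of the 14506 transcripts tested (8.29%) differed by more than 1 on the log2 scale between the night mice, against 499 (3.44%) between the day mice. Night mouse 1 stands apart in genes of sex-biased expression, fat oxidation and cell division and in a list of xenobiotic genes. The main results are therefore given with and without it. Summed hepatocyte markers stood at 127278 and 113057 CPM in the day mice and 116842 and 121969 CPM in the night mice. Summed Kupffer cell and macrophage markers (18 genes) stood at 204 and 233 CPM by day but at 377 and 206 CPM in night mouse 1 and 2. In the sudachitin-treated livers these sums were 253 and 401 CPM at ZT6 and 305 and 250 CPM at ZT18. The part of these markers in the results below was not tested. The pancreatic genes Prss1, Pnlip, Cpa1, Try4 and Amy2a5 were at 0 in all 4 libraries. In bulk liver, a change in the number of cells of a type and a change in RNA per cell cannot be told apart.

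By edgeR's quasi-likelihood test with Benjamini-Hochberg adjustment, 76 of 14506 transcripts (0.524%) changed at an adjusted p under 0.05, of which 31 (0.214%) rose at night and 45 (0.310%) fell. At an unadjusted p under 0.05 there were 1874. The 4 libraries of these 76 did not overlap in any case, and the night mice differed by at most 0.96 on the log2 scale for any of them. All 76 kept their direction when either night mouse was left out, which follows from the lack of overlap and is no further support. Without night mouse 1, with night mouse 2 alone against the day mice, 47 of 15003 (0.313%) were called, 28 higher (0.187%) and 19 lower (0.127%), and 35 of these were among the 76: 18 of the 31 that rose and 17 of the 45 that fell. Without night mouse 2, 323 of 15220 (2.12%) were called, 205 higher (1.35%) and 118 lower (0.775%), including 70 of the 76. So 46.1% of the calls held with night mouse 2 alone and 92.1% with night mouse 1 alone. The largest adjusted p among the 76 was 0.144 with night mouse 2 alone. The number of calls also rests on the other libraries: 5 transcripts were called without day mouse 1, 6 without day mouse 2, 32 without 1 or the other of the ZT6 sudachitin livers, and 4 when only the 4 control libraries were fitted. Of all transcripts tested, 21.3% stood higher in both night mice than in both day mice and 21.1% lower, which is the background for counts of that kind below.

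The largest fall among called transcripts was that of a clock repressor gene. Nr1d1, which encodes the haem-binding repressor REV-ERB alpha (chr11:98767932-98775333, mm10), was read at 119.9 and 102 CPM in the day mice and 4.91 and 5.13 CPM in the night mice. It fell by 4.47 on the log2 scale (SE 0.23, edgeR adjusted p = 0.00028), a 22.1-fold drop, and by 4.44 with night mouse 2 alone. The night mice differed from each other far less than from the day mice. Nr1d2, its paralog REV-ERB beta (chr14:18204054-18239127), was read at 70.7 and 64.6 CPM by day and 23 and 26.3 CPM at night, a fall of 1.46 (SE 0.13, edgeR adjusted p = 0.00559).

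Cry1, which encodes a repressor of CLOCK and BMAL1 (chr10:85131700-85185064), changed the other way. It was read at 9.64 and 11.6 CPM by day and 45.1 and 46.3 CPM at night and rose by 2.10 (SE 0.14, edgeR adjusted p = 0.00159), or 4.3-fold. Its paralog Cry2 was at 40.1 and 31 CPM by day and 36.4 and 35.6 CPM at night, with overlapping groups (log2 change 0.02). Among the period genes, Per2 was higher in both night mice, at 36.3 and 74 CPM against 15.2 and 22.9 CPM, but did not pass the test (log2 change 1.53, SE 0.40, edgeR adjusted p = 0.176). Per1 overlapped between day and night, and Per3 was raised in night mouse 2 only, at 9.43 and 22.2 CPM in the night mice against 10.4 and 8.82 CPM by day. Nr1d1, Nr1d2 and Cry1 were called with either night mouse alone.

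The activator side differed less. Arntl, which encodes BMAL1, was read at 11 and 13.7 CPM by day and 19.3 and 18 CPM at night without overlap (log2 change 0.60, SE 0.18, edgeR adjusted p = 0.242). Clock stood at 45.1 and 48.8 CPM by day and 44.4 and 45.7 CPM at night. Its homologue Npas2 and the receptor gene Rora also overlapped. Nfil3, a repressor of D-box genes, was at 18 and 29.7 CPM by day and 35 and 38.6 CPM at night (edgeR adjusted p = 0.281). The E-box repressor genes Bhlhe40 and Bhlhe41 differed in opposite directions, Bhlhe40 from 97.9 and 61.5 to 111 and 182 CPM and Bhlhe41 from 3.89 and 1.96 to 0.335 and 0.492 CPM, neither past the test; Bhlhe41 shares 726 exonic bases with an antisense transcript that an unstranded library cannot separate. Genes for clock protein turnover, Csnk1d, Csnk1e and Fbxl21, and the repressor gene Ciart did not pass. In all, 2 of the 20 core clock genes tested rose and 2 fell, against 0.214% and 0.310% of all transcripts, and the same 2 and 2 were called with either night mouse alone; their median log2 change was 0.11, beside 0.02 over all transcripts.

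**Figure D1:**
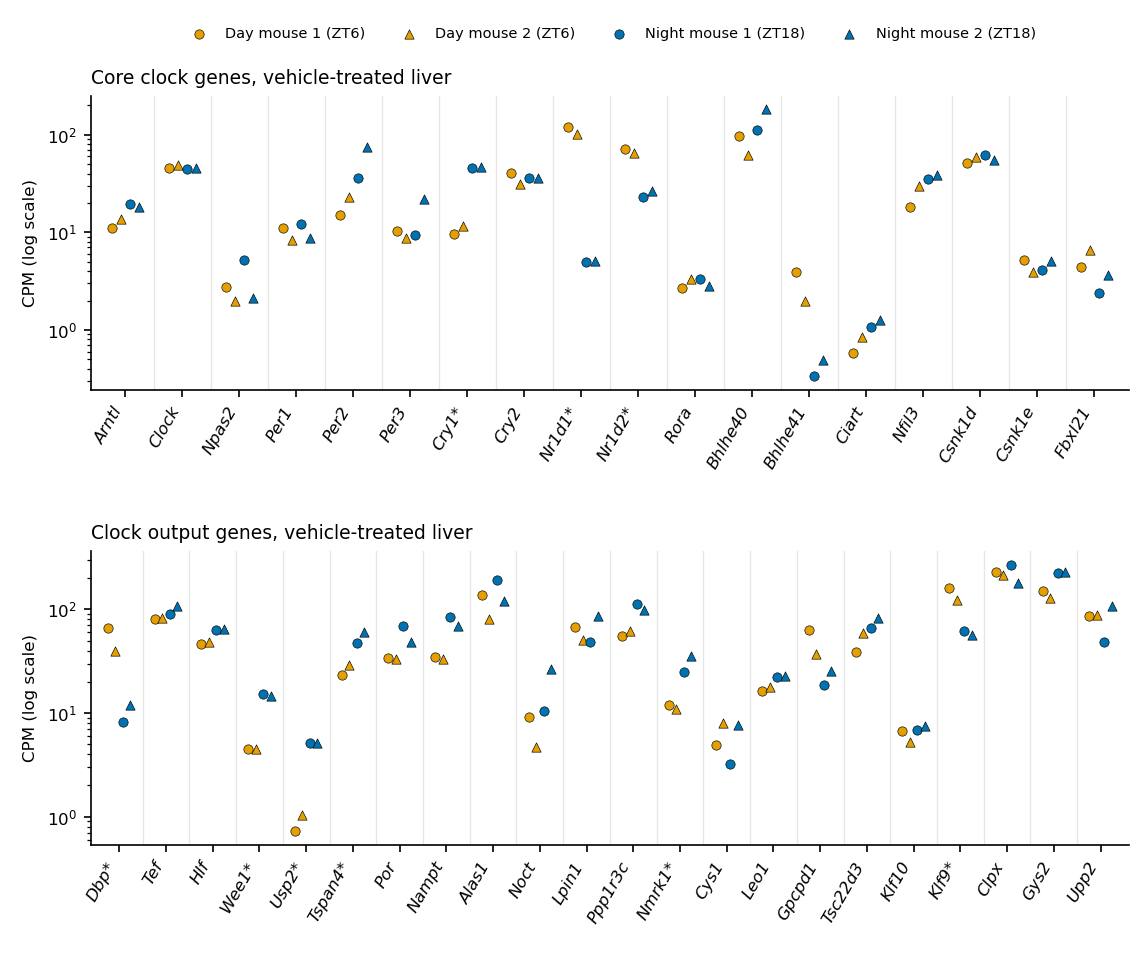
Core clock genes (top, 18 of the 20 tested) and clock output genes (bottom, 22), as CPM on a log axis in each of the 4 vehicle-treated livers; circles and triangles are the 2 mice of a time, and an asterisk marks genes with an edgeR adjusted p under 0.05. For Nr1d1, Nr1d2, Cry1 and Wee1 the symbols of a time sit close together and far from the other time, while Per3, Upp2 and Lpin1 differ between the night mice.

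Clock output genes changed in both directions. Dbp, a D-box activator (chr7:45705088-45710203), was read at 66.1 and 40.0 CPM by day and 8.15 and 11.9 CPM at night and fell by 2.41 (SE 0.27, edgeR adjusted p = 0.0136). It shares 539 exonic bases with the antisense gene Sphk2, which also fell, so part of either value can belong to the other. Klf9, a zinc-finger transcription factor gene, fell from 161 and 123 CPM to 61.9 and 56.8 CPM (log2 change -1.26, SE 0.17, edgeR adjusted p = 0.0229). Dbp was called with either night mouse alone, whereas Klf9 had an edgeR adjusted p of 0.0533 with night mouse 2 alone.

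Wee1, a kinase gene that holds cells before mitosis, was read at 4.53 and 4.44 CPM by day and 15.2 and 14.5 CPM at night and rose by 1.72 (SE 0.17, edgeR adjusted p = 0.00755). Usp2, a deubiquitinase gene, rose from 0.72 and 1.05 to 5.19 and 5.13 CPM (log2 change 2.53, SE 0.42, edgeR adjusted p = 0.0488), and with night mouse 2 alone had a log2 change of 2.51 and an edgeR adjusted p of 0.0864. Tspan4, a tetraspanin gene, rose from 23.2 and 29.2 to 47.5 and 61.1 CPM, and Nmrk1, a nicotinamide riboside kinase gene of NAD synthesis, from 12 and 10.9 to 25.1 and 35.8 CPM (log2 changes 1.05 and 1.41, SE 0.17 and 0.18, edgeR adjusted p = 0.043 and 0.0207). Wee1, Tspan4 and Nmrk1 were called with either night mouse alone.

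The D-box activator genes Tef and Hlf were higher in both night mice without passing the test, Tef at 90.5 and 108 CPM against 80.7 and 83.3 CPM by day and Hlf at 63 and 65 CPM against 46.6 and 48.7 CPM. Nampt, the rate-limiting enzyme of NAD salvage, stood at 34.7 and 33.1 CPM by day and 84 and 69.8 CPM at night and narrowly missed the threshold (log2 change 1.18, SE 0.22, edgeR adjusted p = 0.0686). Por, the electron donor of cytochromes P450, was at 34 and 33.4 CPM by day and 68.7 and 48.4 CPM at night, and the glycogen genes Gys2 and Ppp1r3c were at 223 and 228 CPM and 113 and 99.5 CPM at night against 152 and 129.9 CPM and 55.8 and 62.3 CPM by day, also without a call. Noct, Tsc22d3, Leo1 and Klf10 were higher in both night mice by smaller or more variable amounts, and Gpcpd1 was lower, none of them called. Alas1, Lpin1, Upp2, Cys1 and Clpx overlapped between day and night; Upp2 was at 48.9 and 109 CPM in night mouse 1 and 2 against 87 and 87.4 CPM by day. Of the 22 clock output genes tested, 4 rose and 2 fell, 14 were higher and 3 lower without overlap, and the median log2 change was 0.47; with night mouse 2 alone 3 rose and 1 fell, and the median was 0.48.

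Genes for protein folding in the ER were lower at night as a group. Of the 25 ER chaperone and unfolded protein response genes tested, 7 fell and none rose, 20 were lower at night without overlap and none higher, and the median log2 change was -0.90, against 0.310% fallen, 21.1% lower without overlap and 0.02 over all transcripts. The medians were -0.81 for night mouse 1 and -0.89 for night mouse 2 against the day mice. Hsp90b1, the ER-resident HSP90 (GRP94, chr10:86690840-86705509), was read at 867 and 1018 CPM by day and 473 and 417 CPM at night and fell by 1.08 with a standard error of 0.14 (edgeR adjusted p = 0.0212). The calreticulin gene Calr, a lectin chaperone that binds calcium, went from 914 and 1036 to 473 and 472 CPM (log2 change -1.04, SE 0.14, edgeR adjusted p = 0.023). For both genes each night mouse read below each day mouse, and Calr was 2.06-fold lower at night.

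The protein disulfide isomerase genes Pdia3, Pdia4 and Pdia6, which form and shuffle disulfide bonds, fell together. Pdia6 went from 279 and 366 CPM to 158 and 137 CPM, Pdia4 from 274 and 333 to 166 and 129 CPM, and Pdia3 from 495 and 605 to 312 and 295 CPM, with log2 changes of -1.13, -1.04 and -0.86 (SE 0.17, 0.17 and 0.14; edgeR adjusted p = 0.0363, 0.043 and 0.0472). P4hb, another isomerase gene, differed less, at 1454 and 1497 CPM by day and 1426 and 1139 CPM at night. Xbp1, whose spliced product activates chaperone genes, fell from 156 and 171 to 93.9 and 88 CPM (log2 change -0.85, SE 0.13, edgeR adjusted p = 0.0395). Sdf2l1, a component of the ER chaperone complex, was read at 23.9 and 62.3 CPM by day and 8.76 and 5.13 CPM at night (log2 change -2.62, SE 0.44, edgeR adjusted p = 0.0499); the day mice themselves differed, and day mouse 2 was the higher in this gene as in Hspa5, Hyou1, Creld2, Manf and Syvn1.

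Hspa5 (BiP), the main ER chaperone of the HSP70 family, stood at 901 and 1302 CPM by day and 531 and 417 CPM at night and missed the threshold (log2 change -1.22, SE 0.21, edgeR adjusted p = 0.0529). The co-chaperone genes Dnajb11 and Dnajc3, the nucleotide exchange factor gene Hyou1, the lectin chaperone gene Canx and the oxidase gene Ero1lb were likewise lower in both night mice without a call. The sensor genes differed less: Ern1 (IRE1) overlapped, at 56.8 and 75.8 CPM by day and 56.9 and 81.9 CPM at night, and Atf6 was at 81.8 and 78.5 CPM by day and 66.8 and 64 CPM at night. With night mouse 2 alone, 2 of the 25 fell, Hsp90b1 and Pdia4, and the median was -0.91; without night mouse 2, 5 fell and the median was -0.86. So the direction and size held with night mouse 2 alone, while most calls did not.

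**Figure D2:**
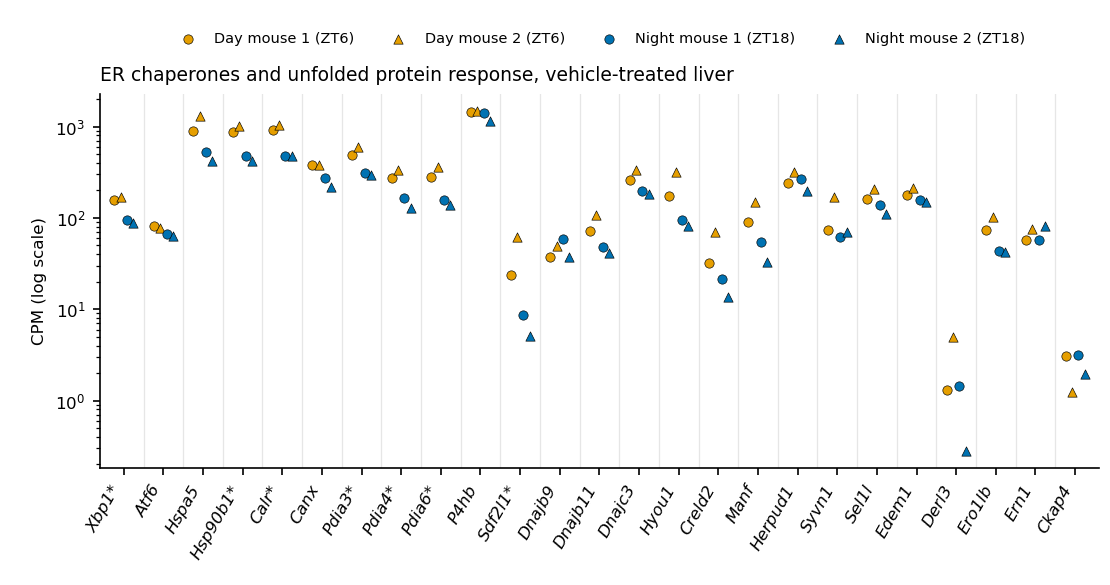
The 25 ER chaperone and unfolded protein response genes tested, as CPM on a log axis in each of the 4 vehicle-treated livers; an asterisk marks genes with an edgeR adjusted p under 0.05. Both night symbols lie below both day symbols for 20 of the 25, and day mouse 2 lies above day mouse 1 for Sdf2l1, Hyou1, Creld2, Manf and Syvn1.

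Genes of the ER translocation channel and of N-glycosylation were also lower at night, by less. None of the 24 tested was called, 16 were lower at night without overlap and none higher, and the median log2 change was -0.37 (-0.22 for night mouse 1 and -0.39 for night mouse 2 against the day mice). Sec61a1, the pore subunit of the channel, stood at 180.4 and 198 CPM by day and 102 and 109 CPM at night (log2 change -0.84, SE 0.14, edgeR adjusted p = 0.0529). The signal peptidase gene Spcs3 and the oligosaccharyltransferase genes Stt3a and Ddost had log2 changes of -0.64, -0.63 and -0.55 (edgeR adjusted p = 0.0645, 0.0991 and 0.133). In the integrated stress response list, 1 of 15 genes tested fell and none rose: Trib3, a pseudokinase gene, went from 7.41 and 8.82 to 3.12 and 1.97 CPM (log2 change -1.66, SE 0.27, edgeR adjusted p = 0.0438) and was called with either night mouse alone. The transcription factor genes Atf4 and Ddit3 overlapped between day and night, and the list's median was -0.07.

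Genes of fatty acid synthesis were mostly higher in both night mice, but 1 of 19 passed the test. Elovl6, which lengthens palmitate to stearate (chr3:129532386-129638495), was read at 199 and 162 CPM by day and 522 and 843 CPM at night and rose by 1.92 (SE 0.30, edgeR adjusted p = 0.0428), by 2.21 with night mouse 2 alone (edgeR adjusted p = 0.025). It was the only one of the 19 genes tested that was called. Thrsp, a lipogenic regulator gene, stood at 514 and 465 CPM by day and 1292 and 1872 CPM at night (log2 change 1.69, SE 0.38, edgeR adjusted p = 0.129). Acaca, acetyl-CoA carboxylase, was at 207 and 152 CPM by day and 279 and 346 CPM at night, and the fatty acid synthase gene Fasn at 1302 and 1612 CPM by day and 2549 and 3541 CPM at night (edgeR adjusted p = 0.196 and 0.366). Neither gene's groups overlapped, and night mouse 2 was the higher of the night mice in each of these 4.

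Over the 19 genes, 10 were higher at night without overlap and none lower, and the median log2 change was 0.61. Against the day mice the median was 0.48 for night mouse 1 and 0.85 for night mouse 2. The day mice differed from each other by a median of 0.58 in size over these genes, beside 0.18 over all transcripts. The regulator genes Srebf1 and Mlxipl overlapped, Mlxipl at 249 and 369 CPM by day and 150.2 and 429.8 CPM at night. Scd1, a desaturase gene, was at 20047 and 11389 CPM by day and 26004 and 30136 CPM at night; the day mice were far apart. Genes of cholesterol synthesis stood on the other side: none of 24 was called, 9 were lower at night without overlap and none higher, and the median was -0.40 (-0.33 and -0.36 for night mouse 1 and 2). The day mice differed from each other by more, with a median difference of 0.75 in size over the list. Summed, the list stood at 5169 and 3568 CPM in day mouse 1 and 2 and at 3694 and 3296 CPM in night mouse 1 and 2. Stard4, Msmo1, Mvk and Cyp51 had the smallest p of that list, with log2 changes of -0.66, -1.12, -1.01 and -0.76 and edgeR adjusted p of 0.223, 0.266, 0.266 and 0.325. Day mouse 1 was above day mouse 2 in each of these 4, as in Hmgcs1 at 663 and 266 CPM.

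In the lipid droplet and lipolysis list 1 of 19 genes rose. G0s2, an inhibitor of the lipase ATGL, was read at 155 and 136 CPM by day and 283 and 327 CPM at night (log2 change 1.07, SE 0.16, edgeR adjusted p = 0.0363) and was called with either night mouse alone. Other members were highest in night mouse 1: Cidec, a droplet fusion gene, stood at 88.7 and 9.2 CPM in night mouse 1 and 2 against 8.06 and 2.68 CPM by day, and the fatty acid uptake gene Cd36 at 262 and 60.2 CPM against 61.4 and 42 CPM. The list's median was 0.91 for night mouse 1 and 0.23 for night mouse 2, and 6 of its genes rose without night mouse 2 against 1 without night mouse 1. Ces1d, a carboxylesterase that hydrolyses stored triglyceride, is in no list and rose from 375 and 369 to 1415 and 929 CPM (log2 change 1.66, SE 0.20, edgeR adjusted p = 0.0149); with night mouse 2 alone it rose by 1.31.

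Of 20 glycolysis and glycogen genes, 11 were higher at night without overlap, 1 was lower and none was called, with medians of 0.30 for night mouse 1 and 0.20 for night mouse 2. Gapdh was at 1443 and 1296 CPM by day and 1804 and 1991 CPM at night, with both night mice above both day mice and no call. None of the 12 gluconeogenesis genes was called, with medians of 0.16 and 0.28, and Pck1 was level, at 858 and 847 CPM by day and 855 and 934 CPM at night. Among bile acid genes 2 of 20 fell: Abcb11, the bile salt export pump, from 633 and 672 to 345 and 389 CPM, and Hsd3b7, an enzyme of bile acid synthesis, from 482 and 584 to 279 and 283 CPM (log2 changes -0.83 and -0.92, SE 0.12 and 0.14, edgeR adjusted p = 0.0363 and 0.0363). Hsd3b7 shares 1665 exonic bases with a same-strand transcript that was also called, so these are not independent calls. Cyp7a1, the rate-limiting enzyme, was higher in both night mice without passing, at 49.6 and 106 CPM against 33.2 and 14 CPM (edgeR adjusted p = 0.17). Neither bile acid call held with night mouse 2 alone (edgeR adjusted p = 0.0806 for both genes).

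**Figure D3:**
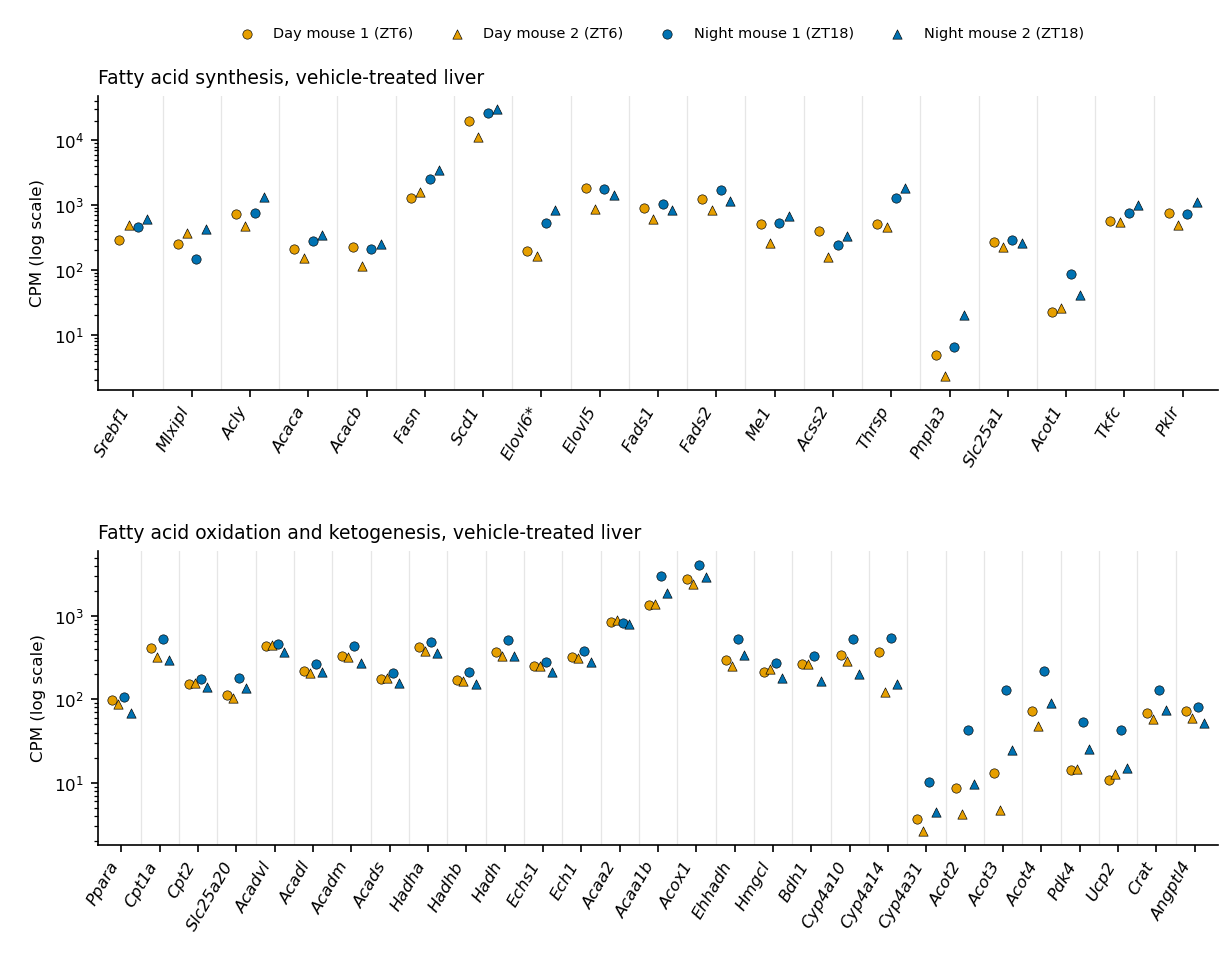
All 19 fatty acid synthesis genes (top) and 29 of the 30 fatty acid oxidation and ketogenesis genes (bottom) tested, as CPM on a log axis in each of the 4 vehicle-treated livers; an asterisk marks genes with an edgeR adjusted p under 0.05. Elovl6, Thrsp and Fasn are higher in both night mice, with night mouse 2 on top, whereas Acot2, Acot3, Ucp2 and Pdk4 are highest in night mouse 1.

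Several of the largest changes fell outside these groups. Among rises, Nat8f5, an acetyltransferase-like gene, went from 5.9 and 5.56 to 20.6 and 33.6 CPM, Lonrf3 from 1.01 and 1.7 to 6.19 and 5.34 CPM, Ppp1r1b, a phosphatase inhibitor gene, from 3.81 and 3.33 to 14.4 and 9.63 CPM, and Caln1 from 2.66 and 2.35 to 6.53 and 7.1 CPM. Rcan1, an inhibitor of calcineurin, rose from 14.2 and 13.3 to 41.3 and 34.1 CPM (log2 change 1.45, SE 0.17, edgeR adjusted p = 0.0136), and Ppard, a fatty acid-sensing nuclear receptor gene, from 6.84 and 8.24 to 19.7 and 21.7 CPM (log2 change 1.45, SE 0.23, edgeR adjusted p = 0.043). Nfe2l2, which encodes the antioxidant regulator NRF2, rose from 59.9 and 64.4 to 105 and 105 CPM (log2 change 0.75, SE 0.11, edgeR adjusted p = 0.0363). Rrm2, a ribonucleotide reductase subunit gene, rose from 5.25 and 4.71 to 11 and 14.4 CPM and was the only one of 25 cell cycle genes called. Of these, Nat8f5, Rcan1 and Rrm2 were called with either night mouse alone.

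Among falls, Fbxo21, a ubiquitin ligase subunit gene, went from 83.7 and 85.2 to 29.4 and 19.95 CPM (log2 change -1.77, SE 0.18, edgeR adjusted p = 0.00755). Agxt, which detoxifies glyoxylate and is the only call among 24 urea cycle and amino acid genes, fell from 206 and 264 to 88 and 89.6 CPM (log2 change -1.40, SE 0.15, edgeR adjusted p = 0.0108). Clec2h fell from 9.79 and 6.08 to 0.335 and 0.773 CPM, the largest fall among called transcripts after Nr1d1 but with a wide error (log2 change -3.87, SE 0.63, edgeR adjusted p = 0.0451, or 0.144 with night mouse 2 alone). Tns2, Gpr146, Ncald and Pdcd4 also fell, by 1.59, 1.36, 1.30 and 1.29 on the log2 scale. Hectd2 and its antisense transcript Hectd2os fell by 1.34 and 1.32 and share 1718 exonic bases, so unstranded reads can count toward both. Of all 76 transcripts called, 20 have exons that overlap another gene on the opposite strand and 9 on the same strand. Fbxo21, Agxt, Hectd2, Ncald and Pdcd4 were called with either night mouse alone.

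Night mouse 1 differed from the other 3 control livers in genes that male and female liver express at different levels under the pulse pattern of growth hormone. The sex-biased lists were taken because earlier results showed this library apart in them, so their counts describe it and are no support. For the male-biased genes it held the lowest value of the 4 control livers in 28 of the 30 tested and the lowest of all 8 in 23. The shares of all transcripts for these 2 counts were not taken. It stood below both day mice in 29 of the 30, against 5637 of all 14506 transcripts. Mup7, a major urinary protein gene, stood at 14.3 and 958 CPM in night mouse 1 and 2 and at 496 and 1107 CPM by day. Hsd3b5, a steroid-metabolising enzyme gene, stood at 0.837 and 86.4 CPM in the night mice and 156 and 266 CPM by day, and the transporter gene Slco1a1 at 26.7 and 378 against 427 and 492 CPM. For Mup7 and Slco1a1 night mouse 2 stood near or among the day mice. The median against the day mice was -1.46 for night mouse 1 and 0.06 for night mouse 2. None of the 30 was called in the full comparison, 10 fell without night mouse 2, and none without night mouse 1. Mup, Serpina1 and Cyp2 genes have near-identical copies among which the authors' counting could split reads, so single values are uncertain.

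The female-biased genes went the other way in night mouse 1. Cyp2b9, a cytochrome P450 of female liver, was read at 309 and 5.34 CPM in night mouse 1 and 2 and 8.85 and 2.88 CPM by day, Cyp2a4 at 50.4 and 1.05 against 0.936 and 1.44 CPM, and the transporter gene Slc22a27 at 22.3 and 4.85 against 2.59 and 0.915 CPM. For Cyp2b9 and Cyp2a4, night mouse 2 lay within the range of the day mice. Of the 26 genes listed, 15 passed the filter on low counts, which a gene can pass through night mouse 1, so no count over them is given as support. Fmo2, a flavin monooxygenase gene and the only one called, was high in both, from 4.61 and 4.84 CPM by day to 30.7 and 16.4 CPM (log2 change 2.32, SE 0.31, edgeR adjusted p = 0.0216); with night mouse 2 alone it rose by 1.79 (edgeR adjusted p = 0.0293). In the growth hormone list, none of 12 genes tested was called; Socs2, a feedback inhibitor gene of the receptor, was at 26.7 and 9.61 CPM by day and 5.69 and 3.51 CPM at night, and Ghr, the receptor gene, at 604 and 618 CPM by day and 515 and 533 CPM at night.

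**Figure D4:**
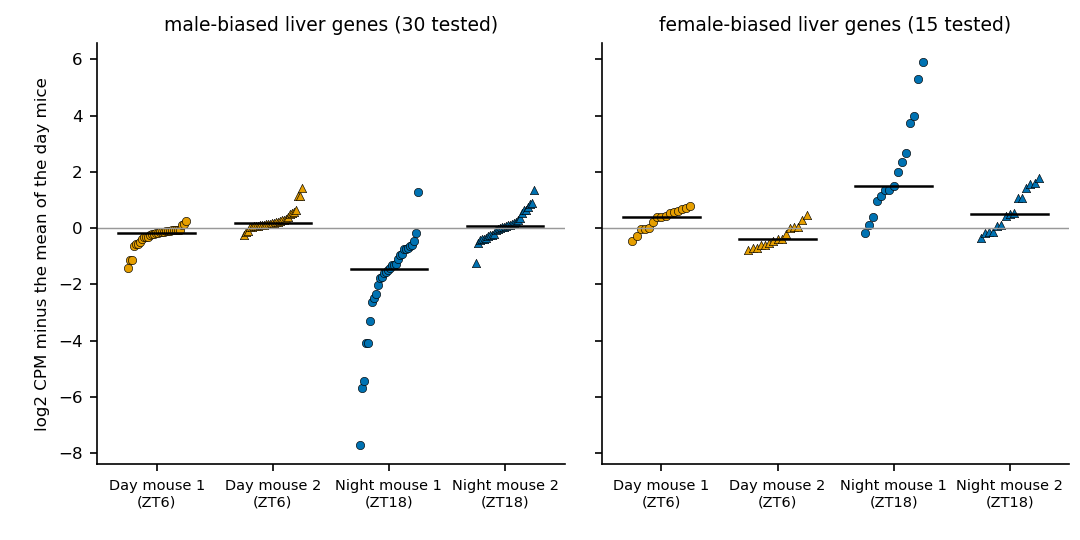
Male-biased (left, 30) and female-biased (right, 15) liver genes tested, as log2 CPM minus the mean of the day mice, 1 symbol per gene in each control liver, with the median as a bar. Night mouse 1 has a median of -1.46 for male-biased genes against 0.06 for night mouse 2; the female-biased genes shown are those that passed the filter on low counts, which night mouse 1 could decide.

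The same library stood further from the day mice than night mouse 2 in fat oxidation, cell division and macrophage genes and in the xenobiotic list. Other detoxification lists had medians near 0 in both night mice. These were -0.10 and 0.06 for 23 CYP2 and CYP3 genes in night mouse 1 and 2. For 16 sulfation and glucuronidation genes they were -0.07 and -0.08. Over all 14506 transcripts, 5656 stood above both day mice in night mouse 1 and 5706 in night mouse 2. That is the background for the counts of this kind here and in the cell cycle list below. Of 30 fatty acid oxidation and ketogenesis genes, 29 stood above both day mice in night mouse 1, with a median of 0.50. In night mouse 2, 11 of these genes did, near the background share, with a median of -0.12. None was called in the full comparison and none with night mouse 2 alone, but 9 rose without night mouse 2. Pdk4, which spares glucose by inhibiting pyruvate dehydrogenase, was at 14.2 and 14.8 CPM by day and 53.2 and 25.7 CPM in night mouse 1 and 2 (log2 change 1.45, SE 0.30, edgeR adjusted p = 0.103), and the thioesterase gene Acot3, which is also in the female-biased list, was at 13.2 and 4.77 CPM by day and 128 and 24.7 CPM at night. Both were higher in each night mouse than by day, and night mouse 1 was the higher of the night mice.

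Gsta1 and Gstm3, glutathione transferase genes of the xenobiotic list, stood above both day mice in night mouse 1 and not in night mouse 2. Gsta1 was read at 14.1 and 0.492 CPM in night mouse 1 and 2 and 0.72 and 0.131 CPM by day, and Gstm3 at 129 and 21.9 against 27.8 and 22.9 CPM. The list had a median of 0.59 for night mouse 1 and 0.09 for night mouse 2, with 7 genes rising without night mouse 2 and none without night mouse 1. The replication genes Mcm6 and Mcm5 were above the day mice in night mouse 1 and not in night mouse 2, with Mcm6 at 16.1 and 2.53 CPM in the night mice and 2.16 and 3.14 CPM by day and Mcm5 at 8.31 and 1.33 CPM against 1.22 and 1.76 CPM. Of 25 cell cycle genes, 23 stood above both day mice in night mouse 1 and 13 in night mouse 2, with medians of 1.27 and 0.13, and with 9 genes rising without night mouse 2 and 1, Rrm2, without night mouse 1. The macrophage markers had medians of 0.79 and -0.10, and Spp1, which is also a bile duct marker, stood at 66.7 and 32.9 CPM in the night mice against 22 and 19.5 CPM by day. Summed erythroid markers (7 genes) stood at 502 and 332 CPM in night mouse 1 and 2 and 323 and 352 CPM by day, and summed bile duct markers (8 genes) at 92.5 and 64.9 CPM in the night mice and 46.1 and 43.4 CPM by day, where Spp1 made up most of the difference in night mouse 1. The part of these marker signals in the other differences of that library was not tested.

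**Figure D5:**
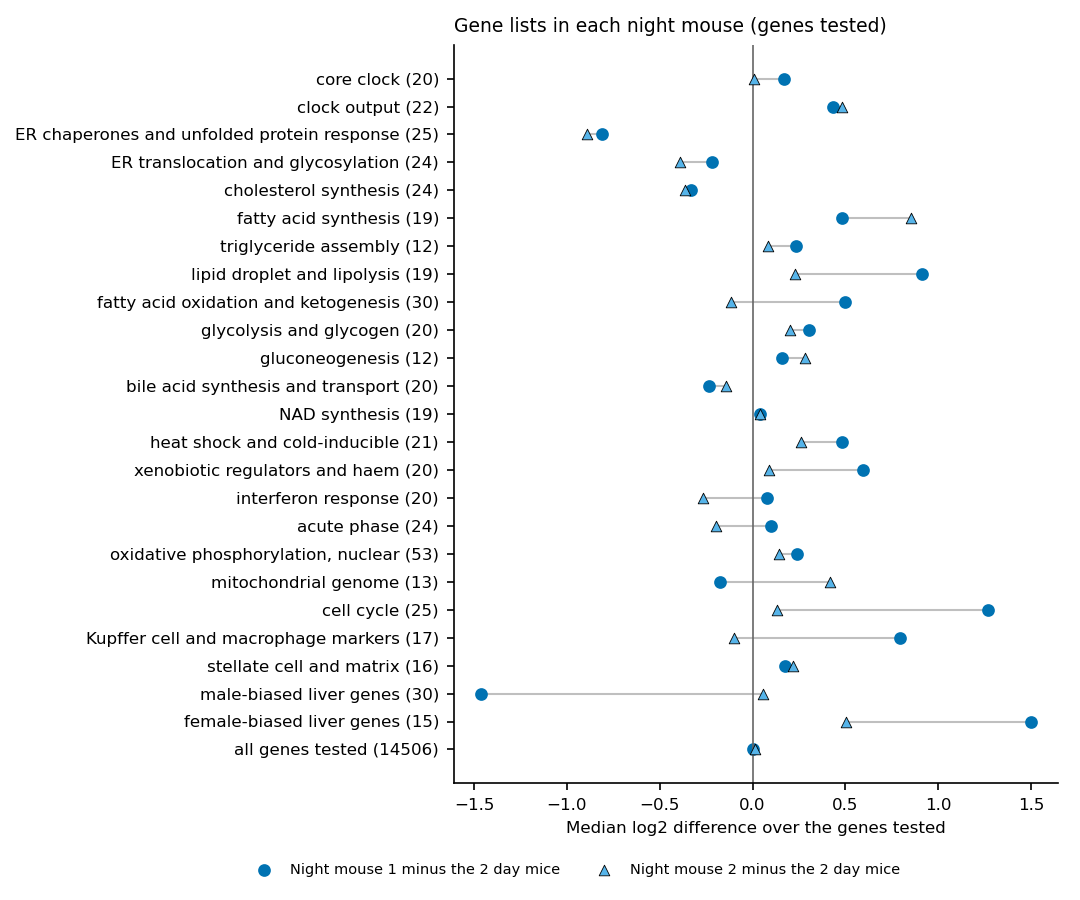
Median log2 difference of each night mouse from the mean of the 2 day mice over the tested genes of 24 lists and over all 14506 transcripts, circles for night mouse 1 and triangles for night mouse 2; the comparisons share the day mice. The symbols lie together for ER chaperones (-0.81 and -0.89), clock output (0.43 and 0.48) and cholesterol synthesis (-0.33 and -0.36), and apart for male-biased genes (-1.46 and 0.06), cell cycle (1.27 and 0.13) and fat oxidation (0.50 and -0.12).

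The time change was also read in the sudachitin-treated livers, where no library of the control comparison is used. All 31 genes that rose in control livers were higher at night in sudachitin-treated livers too, and 25 of the 31 had a smaller change there. Of the 45 that fell, 43 were lower and 39 changed less in size, with a median of -0.76 beside -1.13. The 76 were picked on their change in control mice, in a fit whose filter and spread drew on all 8 libraries. These counts and sizes are therefore a description. The share of all transcripts with the same direction in both treatments was not taken. The difference of the time change between treatments was called for 0 of 14506 transcripts (0%) by edgeR, whose smallest adjusted p was 0.623, with 548 at an unadjusted p under 0.05, and for 12 by DESeq2. Nr1d1 changed by -4.47 in control and -4.04 in sudachitin-treated livers, Cry1 by 2.10 and 1.53, and Dbp by -2.41 and -1.88.

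The chaperone list had a median time change of -0.90 in control and -0.33 in sudachitin-treated livers, and Hsp90b1 had -1.08 and -0.56. By edgeR no difference between treatments was called for these genes, and the list was not tested as a set. A smaller change with sudachitin was also seen for 39 of all 45 genes that fell. The 2 called genes without the same direction were Xbp1, at 121 and 139 CPM by day and 130.4 and 148 CPM at night in sudachitin-treated livers, and Mcm10, a replication factor gene named for this result after its values were seen. Mcm10 fell from 55.8 and 67 to 24.7 and 30.3 CPM in control livers (log2 change -1.16, SE 0.15, edgeR adjusted p = 0.0212, or 0.0533 with night mouse 2 alone) and was at 54.8 and 48.3 CPM by day and 57 and 55.1 CPM at night with sudachitin (edgeR adjusted p of the difference = 0.623). For Xbp1 the adjusted p of the difference was 0.879. A difference between treatments was therefore not shown for either gene.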

How the data were processed

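Liver RNA of 8 mice was sequenced as unstranded poly(A) libraries with paired 150-base reads, per the labels' protocols. Per the submitters' processing notes, the tools included Trimmomatic 0.39, STAR 2.7.2a and HOMER; the sources used here do not give their order or settings. The authors deposited estimated counts per transcript in exons, in steps of 0.5, which were rounded up to whole numbers, and a second table of FPKM values made by the authors. All coordinates are mm10.

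Counts were tested with edgeR 4.0.16 (R 4.3.3, TMM scaling, quasi-likelihood F test, 4 group means over all 8 libraries, Benjamini-Hochberg adjustment over the 14506 transcripts that passed edgeR's filter on low counts, called at an adjusted p under 0.05). Standard errors are the log2 change divided by the square root of F. Limma 3.58.1 on log2(FPKM + 0.1) and DESeq2 1.42.0 were alternatives. The code was tested on simulated data. Libraries of 13914116 to 17759630.5 exon counts leave genes of a few CPM imprecise.

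The genes named were the 15 largest rises and 15 largest falls among called genes whose higher group averaged 5 CPM or more, with no overlap between libraries and a symbol that is not a predicted one; other called list members; all core clock and clock output genes; and up to 4 members of smallest p in each other list. Further list members given as not called, such as Hspa5, Atf6, Pck1 and Ghr, were named for their role after their values were seen. The gene lists and members were chosen with earlier results of these data known, so no list is independent evidence. Some genes, among them 1 called gene, are not reported here by name; they stay in the counts.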

Additional observations from a re-analysis of the deposited data

How the results depend on the processing

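The number of calls, 76 in the main fit, depended on the fit. DESeq2 called 264 transcripts, edgeR without a filter on low counts 881, the 4 control libraries alone 4, and limma on log2(FPKM + 0.1) 31. Limma with sample weights called 51, scaling by total counts 63, the RLE factors 72, a filter of 5 CPM 75 and rounding down 73. Leaving out 1 library at a time gave between 5 and 323 calls, the lowest without day mouse 1 and the highest without night mouse 2. Where 1 mouse of a time is left, its spread is assumed to be that of the other groups. With the replicate block, which adds the replicate number to the fit, 43 were called. The deviations of control mice with the same number correlated at 0.11, and over all pairs of groups between -0.20 and 0.28. Whether mice with the same number share anything else is not given in the labels and was not tested. For the difference between treatments, DESeq2 called 12 transcripts, the fit without a filter 259, and leave-one-out fits between 0 and 13, while with the control libraries alone it could not be fitted. The cause of these differences was not tested. The leave-one-out and control-only fits also had fewer libraries. Signs were followed for 53 of the uncalled genes, and leaving out 1 library turned the sign of 11 of them. Their lowest and highest log2 changes were -0.17 and 0.21 for Cry2, -0.19 and 5.40 for Cyp2a4, -0.13 and 5.77 for Cyp2b9, and -0.21 and 0.30 for Ern1. They were -0.22 and 2.36 for Gstm3, -0.18 and 2.47 for Mcm5, -0.0797 and 2.60 for Mcm6, and -1.03 and 0.47 for Mlxipl. For Mup7 they were -5.80 and 0.25, for Per3 -0.0211 and 1.197, and for Upp2 -0.83 and 0.31. Signs of other uncalled genes turned as well. Of 30 fatty acid oxidation and ketogenesis genes, 25 were above 0 in the full fit and 11 without night mouse 1. No gene named in the text with a call reversed its direction under any setting run. For the leave-one-out fits this follows from the lack of overlap between the day and night libraries of these genes. Genes of a few CPM are limited by depth.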

Other observations

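Nuclear genes of oxidative phosphorylation were slightly higher at night: in the fit over both night mice all 53 had a log2 change above 0, with a median of 0.18, 33 were higher without overlap and none was called. Against the day mice, 53 of 53 were above 0 in night mouse 1 and 45 in night mouse 2, with medians of 0.24 and 0.14. The 13 transcripts of the mitochondrial genome differed between the night mice, with medians of -0.18 for night mouse 1 and 0.42 for night mouse 2, and none was called. Cytosolic ribosomal protein genes were level, with a median of -0.04 over 60 genes.

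Of 21 heat shock and cold-inducible genes, 11 were higher and 2 lower at night without overlap, with a median of 0.33 (0.48 for night mouse 1 and 0.26 for night mouse 2) and no call. Interferon response and acute phase genes, 20 and 24 tested, had medians of 0.08 and 0.10 for night mouse 1 and -0.27 and -0.20 for night mouse 2, and none was called. Stellate cell and matrix genes had a median of 0.18 for night mouse 1 and 0.22 for night mouse 2 over 16 genes, and iron handling genes 0.01 and -0.03 over 16 genes, again with no call.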
